A study of Homo sapiens with 36 samples.

Results

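OCIAML3 is an established line of human acute myeloid leukemia cells, labelled WT for genotype. The libraries described here are the 3 made from OCIAML3 cells after 24 h with daunorubicin at 0.02 µM and the 3 made after 24 h with DMSO, the solvent control, chosen by the cell line and treatment labels. They are 6 of 36 total RNA libraries in the study, which treated 3 leukemia lines (OCIAML3, MOLM13 and HL60) with daunorubicin, cytarabine, their combination or DMSO, in 12 groups of 3. OCIAML3 cells grew in alpha-MEM with 20% serum, and the other lines in RPMI with 10% serum, so that the line and its medium cannot be told apart in any comparison between lines. The libraries are labelled as biological replicates and nothing in the labels says that they came from separate days, so p-values here measure the spread between these cultures. The comparison asks which genes a low dose of daunorubicin up- or down-regulated in this line within a day, and where that response differed from those of MOLM13 and HL60.

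Daunorubicin is an anthracycline that slides between the bases of DNA and traps type II topoisomerase on the strands it has cut, leaving double-strand breaks. Cells sense such breaks through the ATM and ATR kinases, which stabilise the transcription factor p53. p53 then raises genes that stop the cell cycle (CDKN1A, the p21 inhibitor of cyclin-dependent kinases), genes of its own restraint (MDM2, the ligase that marks p53 for destruction) and genes of cell death (BAX, FAS). p21 also lets repressor complexes form at cell cycle genes, so that a p53 response usually includes a fall of mitotic and replication genes. OCIAML3 is known as a line with mutated NPM1.

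The 6 libraries held 29239604 to 45364994 estimated counts. Levels are given as CPM, the counts scaled to library size with TMM factors, always in the order of libraries 1, 2 and 3 of a group, and a log2 fold change is daunorubicin over DMSO, written with its standard error. That error was taken as the size of the log2 fold change over the square root of the test's F statistic, and is unreliable for values near 0. The summed level of 11 myeloid leukemia markers was 3846 to 3941 CPM with daunorubicin and 3981 to 4072 CPM with DMSO, and all 11 passed the filter on low counts, although MPO, a defining myeloid enzyme, was only near 2 CPM (1.87, 1.79 and 2.75 CPM with daunorubicin and 2.55, 1.90 and 2.47 CPM with DMSO). Erythroid, T-cell, B-cell, megakaryocyte and epithelial or fibroblast markers summed to between 0 and 3.71 CPM in every library, and ALAS2, CD3D, CD3E, CD2, PF4, GP9, EPCAM and KRT19 were at 0 in all 6. In a principal component analysis the first component carried 67.0% of the variance and separated the treatments, with scores of 39.4, 23.3 and 3.28 for the daunorubicin libraries and −17.7, −22.6 and −25.5 for the DMSO libraries. Daunorubicin library 3 thus lay nearest to DMSO, and for many genes below it moved least. In such bulk libraries fewer cells of a kind and less RNA per cell cannot be told apart.

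Of 15729 genes tested, 622 were called differentially expressed (3.95%), meaning a false discovery rate (FDR) under 0.05 in edgeR's quasi-likelihood test and a log2 fold change beyond 1 in either direction. Of these, 547 were up-regulated (3.48%) and 75 down-regulated (0.477%). Without the fold threshold the split was even, with 2410 genes higher (15.3%) and 2487 lower (15.8%), so the excess of inductions lay among the larger changes. In the text below, rose and fell stand for an FDR under 0.05, and called for both thresholds. Protein-coding genes made up 437 of the up-regulated and 52 of the down-regulated genes, and lncRNA genes 90 and 19. The median log2 fold change of all genes tested was 0.01. The number called depended on single libraries: it was 337, 296 and 1013 without daunorubicin library 1, 2 or 3, and 461, 280 and 328 without DMSO library 1, 2 or 3. When the OCIAML3 cytarabine and combination libraries shared the fit, so that 12 libraries set the spread, no gene was called by edgeR, although 5086 had an unadjusted p under 0.05. Without library 3 of cytarabine and library 3 of the combination, an alternative added after seeing the data, the 10 remaining libraries gave 701 called genes, 592 of them shared with the 622.

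**Figure D1:**
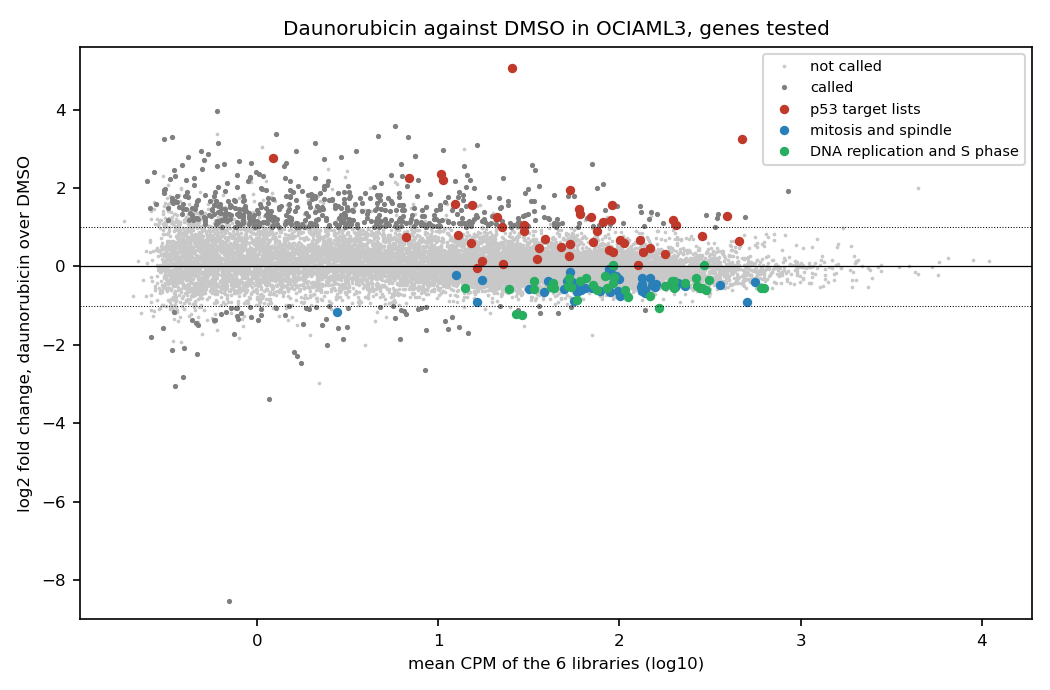
Log2 fold change of daunorubicin over DMSO in OCIAML3 (vertical axis) against the mean CPM of the 6 libraries on a log10 scale (horizontal axis) for the 15729 genes tested. Dark points are called genes and dotted lines mark the fold threshold; red points, members of the p53 target lists, lie mostly above 0, while blue (mitosis) and green (replication) points lie mostly below 0, largely inside the fold threshold.

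The p53 targets rose as a group. Of 53 genes on 3 lists of known p53 targets, 47 were tested, 41 rose, 20 of them past the fold threshold, and none fell. Of all genes tested, 15.3% rose, 3.48% were called up-regulated and 15.8% fell. Their median log2 fold change was 0.81, against 0.01 for all genes tested. In 42 of the 47 every daunorubicin library was above every DMSO library, a pattern that 23.8% of all genes tested had.

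To show sequence near these genes, the genome within 2500 bases of each gene's canonical start was searched on both strands for the p53 response element, which is a pair of 10-base decamers with no spacer, allowing at most 2 mismatches outside the C and G cores. Such a match was found for 14 of the 47 tested targets (29.8%), against 288 of 12634 protein-coding genes tested (2.28%) and 21 of 437 that were called up-regulated (4.81%). With at most 1 mismatch the counts were 5 of 47 (10.6%) and 49 of 12634 (0.388%). A match is a description of the letters, and targets with none in this window may have one elsewhere. The 11 matches beside target genes that rose and are described below are printed here, with the 20 bases of the element in capitals and 5 bases on either side, on GRCh38.
PLK2, chr5:58462269-58462298, minus strand: atgagAAACATGCCTGGACTTGCCCtgcac
ZMAT3, chr3:179070183-179070212, minus strand: tcataAAACAAGTCCAGACATGCCTaggca
CCNG1, chr5:163437921-163437950, plus strand: tgtgaGCACAAGCCCAGGCTAGTCCgaggc
GADD45A, chr1:67686770-67686799, plus strand: gtacaGAACATGTCTAAGCATGCTGgggac
CDKN1A, chr6:36676444-36676473, plus strand: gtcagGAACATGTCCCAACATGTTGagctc
GDF15, chr19:18385303-18385332, plus strand: attgcCATCTTGCCCAGACTTGTCTcgaac
BTG2, chr1:203303637-203303666, plus strand: gggtcACGCATGTTCAGGCATGCATggaat
AEN, chr15:88621301-88621330, plus strand: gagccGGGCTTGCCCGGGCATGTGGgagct
FAS, chr10:88991304-88991333, plus strand: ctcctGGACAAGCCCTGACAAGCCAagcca
CMBL, chr5:10307579-10307608, minus strand: ggggcACACAAGCCCACACAAGCCCgggcc
SPATA18, chr4:52051952-52051981, plus strand: aggaaGGACATGTGTGTACATGCCCttgtc
The PLK2 and ZMAT3 elements matched without a mismatch, and those of CCNG1 and GADD45A with 1. Counted in bases from the start, with negative positions before it, the PLK2 element was centred at −2198, the CDKN1A element at −2256, the BTG2 element at −1868 and the AEN element at −24. The ZMAT3 and GADD45A elements were centred at 1612 and 1584.

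Among targets that arrest the cell cycle or restrain p53, all 15 that were tested rose and 11 were called, with a median log2 fold change of 1.25. Over all genes tested 15.3% rose and 3.48% were called up-regulated. CDKN1A had 1261, 927 and 390.2 CPM with daunorubicin, against 104, 89.9 and 78.0 CPM with DMSO. The lowest treated library was above the highest control library by several fold, but the treated libraries themselves were widely spread (log2 fold change 3.24 ± 0.39, FDR 0.0039). MDM2 had 625, 588 and 453 CPM with daunorubicin, against 248, 228 and 205 CPM with DMSO, with no overlap and a much smaller spread (log2 fold change 1.29 ± 0.12, FDR 0.00278). Its phosphatase partner in p53 feedback, PPM1D, rose less (log2 fold change 0.57 ± 0.07, FDR 0.00397). GDF15, a secreted stress cytokine, gave 91.6, 47.6 and 10.1 CPM with daunorubicin, against 2.04, 1.09 and 1.42 CPM with DMSO. It was nearly silent in every control library, and treated library 1 was several fold above treated library 3 (log2 fold change 5.06 ± 0.80, FDR 0.00641).

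Several arrest targets with smaller changes were far more even between libraries. RPS27L, a small ribosomal-like protein that acts on MDM2, had 168, 158 and 156 CPM with daunorubicin, against 101, 102 and 98.5 CPM with DMSO. All treated libraries lay within a narrow range above the controls, and the gene was among those with the smallest p (log2 fold change 0.68 ± 0.05, FDR 0.00205) although it did not reach the fold threshold. PLK2, a stress-induced polo-like kinase, had 20.8, 20.1 and 15.1 CPM with daunorubicin, against 6.31, 6.25 and 6.07 CPM with DMSO (log2 fold change 1.59 ± 0.13, FDR 0.00205). PHLDA3, an inhibitor of AKT signalling, had 130.4, 140.2 and 106 CPM with daunorubicin, against 55.2, 57.8 and 51.4 CPM with DMSO (log2 fold change 1.20 ± 0.10, FDR 0.00205). Neither gene overlapped between the groups. TP53INP1 (log2 fold change 1.95), the antiproliferative BTG2 (1.47), GADD45A (1.27), ZMAT3, an RNA-binding target (1.25), TRIM22 (1.18) and SESN1, a stress-induced regulator of mTORC1 (1.14), were called as well, each with FDR under 0.05, while CCNG1 and PLK3 rose below the fold threshold (0.37 and 0.81). Leaving out any 1 library left 15 of 15 past the FDR threshold.

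**Figure D2:**
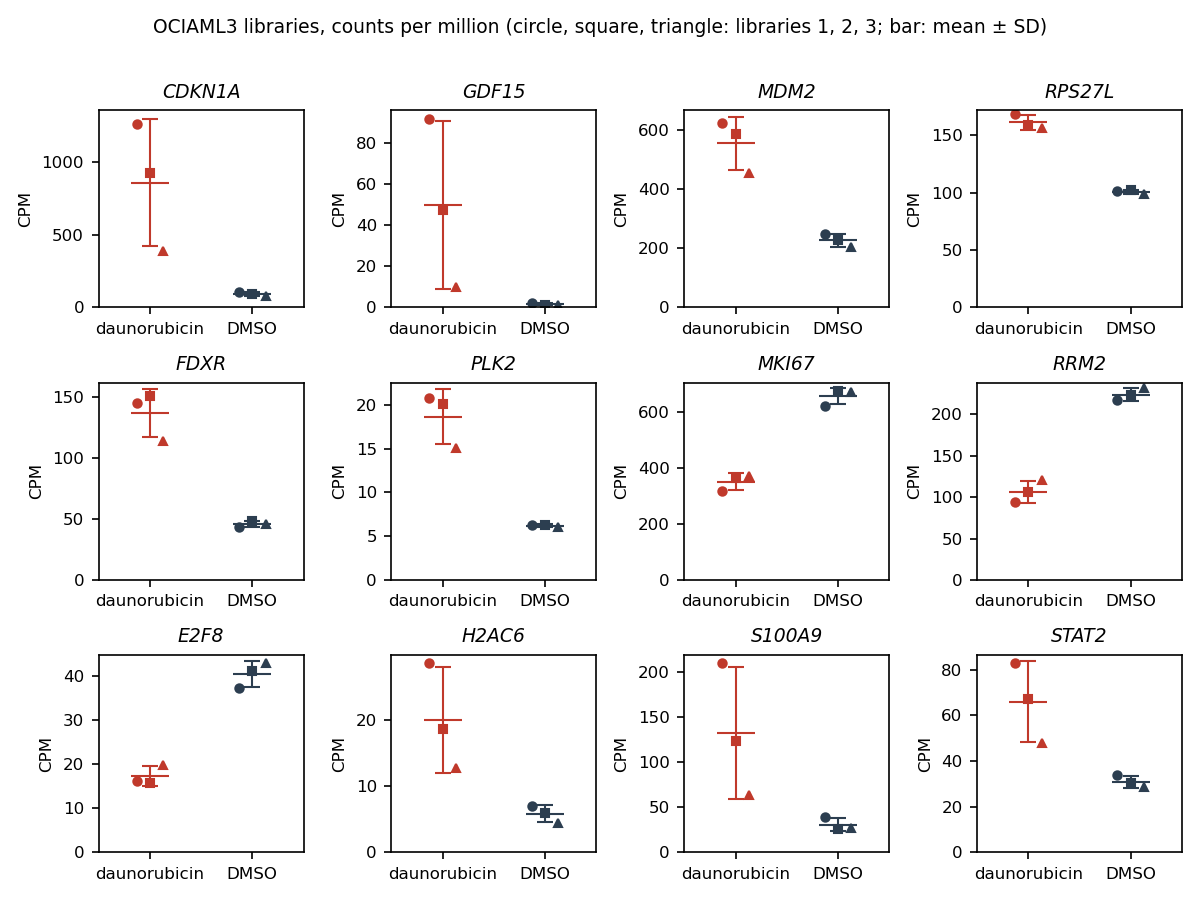
Level in CPM (vertical axes, from 0) of 12 genes in each OCIAML3 library, daunorubicin at the left and DMSO at the right of each panel; circle, square and triangle are libraries 1, 2 and 3 and the bar is the mean with its SD (n = 3). CDKN1A, GDF15, H2AC6 and S100A9 spread widely among treated libraries, with the triangle lowest, whereas RPS27L, FDXR and PLK2 are tight, and MKI67, RRM2 and E2F8 lie wholly below their controls.

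Targets of cell death moved less. Of 15 tested, 10 rose and 3 were called, with a median log2 fold change of 0.48, where 15.3% of all genes tested rose and 3.48% were called up-regulated. TNFRSF10C, a decoy receptor of the death ligand TRAIL, had 21.3, 18.9 and 11.996 CPM with daunorubicin, against 3.56, 3.30 and 3.26 CPM with DMSO. It was the most strongly induced of this group and its libraries did not overlap (log2 fold change 2.37 ± 0.21, FDR 0.00235). The signalling TRAIL receptor TNFRSF10B had 399, 373 and 316 CPM with daunorubicin, against 231, 206 and 196 CPM with DMSO (log2 fold change 0.78 ± 0.10, FDR 0.00397), while TNFRSF10A was not separated (log2 fold change 0.15 ± 0.11, FDR 0.352). FAS, the other death receptor of the list, had 33.9, 32.0 and 24.3 CPM with daunorubicin, against 14.7, 15.3 and 14.5 CPM with DMSO (log2 fold change 1.02 ± 0.12, FDR 0.00397). TP53I3, an oxidoreductase, was also called (log2 fold change 1.57 ± 0.19, FDR 0.00397). Of the mitochondrial arm, BBC3 (PUMA) had 41.1, 42.8 and 32.9 CPM with daunorubicin, against 19.8, 22.7 and 19.7 CPM with DMSO (log2 fold change 0.91 ± 0.11, FDR 0.00397), just short of the fold threshold. BAX, the pore-forming effector, had 172, 182 and 160.1 CPM with daunorubicin, against 124, 127 and 118 CPM with DMSO (log2 fold change 0.48 ± 0.06, FDR 0.00426), a small shift without overlap. PMAIP1 (NOXA), often induced in parallel with BBC3, stayed level at 16.4, 17.3 and 15.1 CPM with daunorubicin and 15.9, 16.5 and 17.3 CPM with DMSO (log2 fold change −0.03 ± 0.08, FDR 0.813), and APAF1 (log2 fold change 0.05 ± 0.05, FDR 0.515), PERP (log2 fold change 0.06 ± 0.07, FDR 0.52) and PIDD1 (log2 fold change 0.18 ± 0.09, FDR 0.157) did not pass the test either.

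In the wider BCL2 family 5 of 15 members rose and none fell, against 15.3% and 15.8% of all genes tested. BCL2L11 (BIM), an activator of BAX, had 69.2, 66.1 and 67.5 CPM with daunorubicin, against 49.6, 47.6 and 51.4 CPM with DMSO (log2 fold change 0.45 ± 0.05, FDR 0.0038), and BAK1 rose slightly (log2 fold change 0.24 ± 0.06, FDR 0.0284). BCL2A1, an antiapoptotic member, was the one called, with 8.43, 5.24 and 2.86 CPM with daunorubicin, against 2.23, 2.18 and 1.81 CPM with DMSO (log2 fold change 1.40 ± 0.36, FDR 0.0228). Treated library 1 was highest and library 3 close to the controls. The other guardians did not pass: MCL1 (log2 fold change 0.16 ± 0.07, FDR 0.115), BCL2L1 (log2 fold change 0.22 ± 0.11, FDR 0.145) and BCL2 itself, which had 70.2, 93.1 and 125 CPM with daunorubicin, against 124, 136 and 159 CPM with DMSO (log2 fold change −0.54 ± 0.19, FDR 0.0632). For BCL2, treated library 3 was within the range of the controls, but BCL2 passed when the replicate number was fitted as a block (FDR 0.00428). Without daunorubicin library 2, DMSO library 2 or DMSO library 3 the number that rose was 3 each time. With 1 library left out, the FDR exceeded the threshold (largest given) for BAK1 (0.109) without daunorubicin 2 or DMSO 2 or 3, BCL2A1 (0.0852) without daunorubicin 2 or DMSO 1, 2 or 3. An offset for transcript length gave an FDR over the threshold for BAK1 (FDR 0.0559).

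DNA repair and metabolic targets rose almost without exception, 16 of 17 tested, with 6 called and a median log2 fold change of 0.74. For all genes tested the shares were 15.3% that rose and 3.48% called up-regulated. FDXR, the reductase that feeds electrons to mitochondrial cytochrome P450 enzymes, had 145, 151 and 114 CPM with daunorubicin, against 43.6, 48.5 and 45.4 CPM with DMSO (log2 fold change 1.57 ± 0.11, FDR 0.00205). CYFIP2, a subunit of the actin-regulating WAVE complex, had 89.1, 95.0 and 75.8 CPM with daunorubicin, against 34.6, 35.4 and 33.3 CPM with DMSO (log2 fold change 1.33 ± 0.09, FDR 0.00205). Both had among the smallest p-values of all genes tested, and neither overlapped. CMBL, a hydrolase, had 20.8, 19.3 and 12.5 CPM with daunorubicin, against 3.65, 4.06 and 3.66 CPM with DMSO (log2 fold change 2.21 ± 0.20, FDR 0.00233). RRM2B, the p53-inducible small subunit of ribonucleotide reductase that supplies nucleotides for repair, had 307, 291 and 233 CPM with daunorubicin, against 135, 140.0 and 127 CPM with DMSO (log2 fold change 1.05 ± 0.10, FDR 0.00278), and TIGAR, a brake on glycolysis, was called as well (log2 fold change 1.07 ± 0.10, FDR 0.00283). Rising too were the nucleotide excision repair factors XPC (log2 fold change 0.90 ± 0.08, FDR 0.00261) and DDB2 (log2 fold change 0.68 ± 0.09, FDR 0.00407) and the translesion polymerase POLH (log2 fold change 0.63 ± 0.07, FDR 0.00375), each below the fold threshold. SPATA18, which takes part in mitochondrial quality control, was called from low levels of 2.95, 2.21 and 1.33 CPM with daunorubicin and 0.194, 0.488 and 0.231 CPM with DMSO (log2 fold change 2.76 ± 0.43, FDR 0.00639). ALOX5 was the member that did not pass (log2 fold change 2.27 ± 0.89, FDR 0.0874), with DMSO library 2 listed at 0 and the other controls at 3.69 and 3.63 CPM. An offset for transcript length gave an FDR over the threshold for SPATA18 (FDR 0.058).

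**Figure D3:**
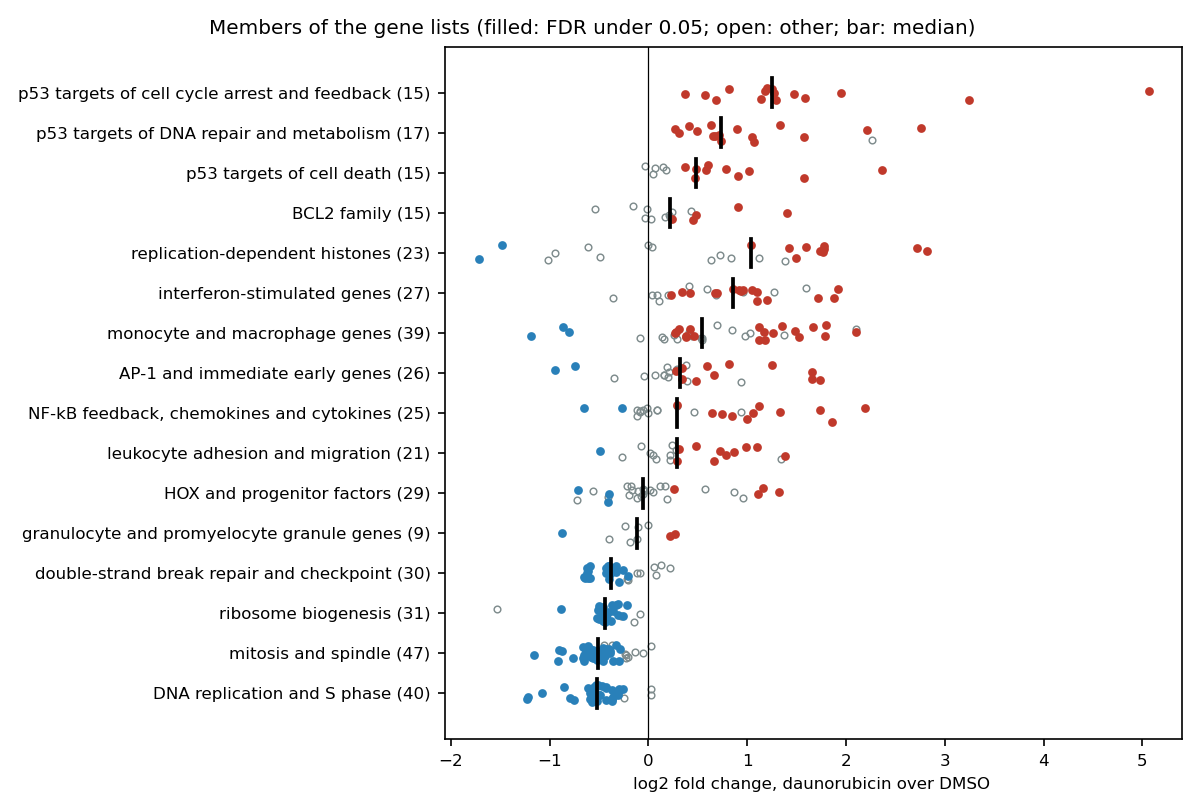
Log2 fold change of daunorubicin over DMSO (horizontal axis) for each tested member of each gene list (rows); red is positive, blue negative, filled points have an FDR under 0.05, and the black tick is the list's median. The p53 lists lie mostly to the right of 0, the mitosis, replication, double-strand break repair and ribosome biogenesis lists mostly to the left, and the histone, cytokine and monocyte lists spread to both sides.

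Most mitotic genes fell, nearly all by less than the fold threshold. Of 47 tested members of the mitosis and spindle list, 38 fell, 1 of them called, and none rose, with a median log2 fold change of −0.51. Of all genes tested, 15.8% fell, 0.477% were called down-regulated and 15.3% rose. MKI67, the proliferation antigen, had 317, 365 and 373 CPM with daunorubicin, against 623, 676 and 673 CPM with DMSO (log2 fold change −0.90 ± 0.07, FDR 0.00205). AURKB, the kinase of the chromosomal passenger complex, had 37.2, 42.7 and 39.1 CPM with daunorubicin, against 67.5, 73.8 and 77.4 CPM with DMSO (log2 fold change −0.88 ± 0.07, FDR 0.00205), and INCENP, its scaffold, 105, 112 and 107 CPM with daunorubicin and 152, 157 and 156 CPM with DMSO (log2 fold change −0.52 ± 0.05, FDR 0.00267). ESPL1, the separase that opens sister chromatids, had 59.1, 64.9 and 60.2 CPM with daunorubicin, against 91.6, 96.96 and 96.98 CPM with DMSO (log2 fold change −0.63 ± 0.06, FDR 0.00237). In each of these every treated library was below every control. FOXM1, the transcription factor of the mitotic programme, fell (log2 fold change −0.64 ± 0.06, FDR 0.00285), as did CCNA2 (log2 fold change −0.67 ± 0.08, FDR 0.0039), PLK1 (log2 fold change −0.52 ± 0.09, FDR 0.00713), CDC20 (log2 fold change −0.48 ± 0.09, FDR 0.00959), CCNB1 (log2 fold change −0.30 ± 0.07, FDR 0.0177) and CDK1 (log2 fold change −0.29 ± 0.09, FDR 0.0403). TOP2A, a direct target of daunorubicin, had 452, 573 and 439.8 CPM with daunorubicin, against 583, 671 and 661 CPM with DMSO (log2 fold change −0.39 ± 0.11, FDR 0.0302). SPC25 was the called member, from low levels of 1.42, 1.10 and 2.62 CPM with daunorubicin and 2.75, 3.99 and 4.65 CPM with DMSO (log2 fold change −1.16 ± 0.34, FDR 0.036). Not separated were AURKA (log2 fold change −0.06 ± 0.10, FDR 0.684), NEK2 (log2 fold change −0.14 ± 0.10, FDR 0.305) and UBE2C (log2 fold change −0.21 ± 0.12, FDR 0.216). Single libraries decided some of these calls, since leaving 1 out put the FDR over the threshold (largest given) for CCNB1 (0.0763) without DMSO 1 or 2, CDK1 (0.134) without daunorubicin 1 or 3 or DMSO 2 or 3, TOP2A (0.109) without daunorubicin 1 or DMSO 2 or 3, SPC25 (0.116) without daunorubicin 1 or 2 or DMSO 2 or 3. With an offset for transcript length CDK1 (FDR 0.0601) and SPC25 (FDR 0.0518) lost the threshold.

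Replication genes gave the same picture with larger single changes. Of 40 tested, 37 fell, 3 were called and none rose, with a median of −0.52. The shares over all genes tested were 15.8% that fell, 0.477% called down-regulated and 15.3% that rose. RRM2, the S-phase subunit of ribonucleotide reductase, had 93.7, 106 and 120.2 CPM with daunorubicin, against 217, 223 and 232 CPM with DMSO. The libraries of the groups were far apart (log2 fold change −1.07 ± 0.09, FDR 0.00205), the opposite direction to its p53-inducible relative RRM2B. E2F8, an S-phase repressor of E2F targets, had 16.3, 15.7 and 19.9 CPM with daunorubicin, against 37.3, 41.2 and 42.9 CPM with DMSO (log2 fold change −1.23 ± 0.10, FDR 0.00205). CCNE2, the cyclin that starts S phase, had 10.8, 13.2 and 24.6 CPM with daunorubicin, against 31.5, 41.1 and 39.8 CPM with DMSO (log2 fold change −1.22 ± 0.28, FDR 0.0164), with treated library 3 nearest to the controls. All 6 subunits of the MCM2 to MCM7 helicase fell, with log2 fold changes between −0.59 (MCM6) and −0.34 (MCM5), and so did the origin factors CDC6 (−0.61), CDT1 (−0.43), ORC1 (−0.30) and MCM10 (−0.59). GINS1 fell most among the GINS subunits (log2 fold change −0.85 ± 0.07, FDR 0.00205). PCNA, the sliding clamp and also a p53 target, was level at 284, 309 and 292 CPM with daunorubicin and 269, 290.3 and 307 CPM with DMSO (log2 fold change 0.03 ± 0.06, FDR 0.746), and LIG1 missed the threshold (log2 fold change −0.24 ± 0.08, FDR 0.0603). Some calls were lost when a library was left out (largest FDR given), these being CCNE2 (0.0686) without daunorubicin 2 or DMSO 2 or 3, MCM5 (0.0524) without DMSO 2, ORC1 (0.0618) without DMSO 2 or 3.

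Short promoter stretches show the letters that these lists share. In promoters taken as 250 bases before to 50 bases after the start (RefSeq, GRCh38.p14), the cell cycle homology region (CHR) TTTGAA was found on either strand in 25 of 41 mitotic genes with a promoter entry (61.0%), against 15.4% of 27305 promoters, and the CCAAT box in 33 of 41 (80.5%), against 35.7%. An E2F site, searched as TTTGGCGC, TTTCCCGC, TTTCGCGC or TTTGCCGC, was in 20 of 34 replication genes (58.8%), against 3.33% of promoters, whereas the CHR was in 1 of those 34 (2.94%). Over all genes that fell, the CHR was in 254 of 2012 (12.6%), below the share of all promoters, the CCAAT box in 841 (41.8%) and the E2F site in 175 (8.7%). Among all genes that rose the shares were lower, at 9.18% for the CHR, 34.8% for the CCAAT box and 3.46% for the E2F site. The stretches below show the CHR or E2F letters in capitals, on the gene's strand. The matches were not tested for occupancy in these cells.
MKI67, chr10:128126424-128126482, minus strand: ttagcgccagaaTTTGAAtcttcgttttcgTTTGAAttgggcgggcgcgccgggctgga
ESPL1, chr12:53268238-53268298, plus strand: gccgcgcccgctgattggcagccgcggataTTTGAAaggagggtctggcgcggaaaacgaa
INCENP, chr11:62123971-62124010, plus strand: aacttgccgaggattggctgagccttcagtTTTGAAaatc
RFC3, chr13:33818064-33818131, plus strand: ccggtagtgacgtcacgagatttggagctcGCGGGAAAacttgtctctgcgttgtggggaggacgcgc
CDT1, chr16:88803724-88803788, plus strand: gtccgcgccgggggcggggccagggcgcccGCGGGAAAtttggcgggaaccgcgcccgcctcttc
MCM7, chr7:100101398-100101436, minus strand: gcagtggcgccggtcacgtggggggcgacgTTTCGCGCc
MKI67 carries the CHR letters in 2 places. The E2F letters of RFC3 and CDT1 read GCGGGAAA on the gene's strand, the reverse complement of TTTCCCGC.

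Genes of double-strand break repair and its checkpoint fell as well, 22 of 30 tested (against 15.8% of all genes tested), none called and none rising. H2AX, the histone variant marked at breaks, had 99.4, 109.9 and 106 CPM with daunorubicin, against 161, 171 and 162 CPM with DMSO (log2 fold change −0.65 ± 0.06, FDR 0.00205). MDC1, which binds marked H2AX, had 104, 123 and 125 CPM with daunorubicin, against 182, 176 and 182 CPM with DMSO (log2 fold change −0.61 ± 0.07, FDR 0.0039). The recombination factors BARD1 (log2 fold change −0.59 ± 0.07, FDR 0.00354) and BRCA1 (log2 fold change −0.41 ± 0.10, FDR 0.0227), the Fanconi pair FANCI (log2 fold change −0.65 ± 0.07, FDR 0.00345) and FANCD2 (log2 fold change −0.43 ± 0.08, FDR 0.00972), and the end-joining proteins XRCC5 (log2 fold change −0.34 ± 0.08, FDR 0.018) and XRCC6 (log2 fold change −0.30 ± 0.08, FDR 0.0275) fell, as did the checkpoint kinase CHEK1 (log2 fold change −0.40 ± 0.10, FDR 0.0221). The sensor kinases did not pass: ATM had 202, 199 and 206 CPM with daunorubicin and 185, 180.4 and 191 CPM with DMSO (log2 fold change 0.13 ± 0.05, FDR 0.0689) and ATR 72.2, 70.0 and 76.6 CPM with daunorubicin and 66.4, 71.3 and 72.9 CPM with DMSO (log2 fold change 0.05 ± 0.06, FDR 0.52). Many of these genes peak in S and G2 phase, and their share of the result was not separated from that of the replication list. The count was 11 without daunorubicin library 2, DMSO library 2 or DMSO library 3. Not every call held without each library, as the FDR was over the threshold (largest given) for XRCC5 (0.0702) and CHEK1 (0.0801) without daunorubicin 2 or DMSO 2 or 3, BRCA1 (0.0846) without daunorubicin 1 or 2 or DMSO 2 or 3, XRCC6 (0.0942) without daunorubicin 2 or DMSO 1, 2 or 3. With an offset for transcript length CHEK1 (FDR 0.0568) lost the threshold. ATM rose with a filter at 1 CPM in 3 libraries (FDR 0.0457) and with protein-coding genes alone (FDR 0.0452).

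Replication-dependent histone genes did not follow the replication genes. Their messages normally end in a stem loop without a poly(A) tail. Of 67 listed, 23 passed the filter on low counts, 10 rose and 2 fell, all 12 called, where 15.3% and 15.8% of all genes tested rose and fell. H2AC6 had 28.6, 18.6 and 12.7 CPM with daunorubicin, against 7.02, 6.01 and 4.48 CPM with DMSO (log2 fold change 1.77 ± 0.29, FDR 0.00708) and H2BC12 25.4, 17.1 and 9.97 CPM with daunorubicin and 5.92, 4.83 and 4.65 CPM with DMSO (log2 fold change 1.77 ± 0.31, FDR 0.00786). H2BC21 had 14.1, 8.82 and 5.37 CPM with daunorubicin, against 3.33, 2.18 and 2.77 CPM with DMSO (log2 fold change 1.78 ± 0.34, FDR 0.0101). In each the treated libraries were all above the controls, library 1 by most. H1-4 and H2AC20 were the ones that fell, from low levels (log2 fold change −1.72 ± 0.35, FDR 0.0123, and −1.48 ± 0.31, FDR 0.0134). H4C14 and H4C15 are near-identical copies between which reads can be divided, and H4C14 ranged between 0.297 and 4.59 CPM within the controls, so its value is uncertain. Leaving out a library changed the number that rose to 6, 5 and 13 (daunorubicin 1, 2 and 3) and 8, 3 and 4 (DMSO 1, 2 and 3), and the number that fell to between 1 and 4. H1-10, a replication-independent linker histone outside this list, had 78.3, 84.1 and 102 CPM with daunorubicin, against 178, 197 and 195 CPM with DMSO and was among the called genes with the smallest p (log2 fold change −1.11 ± 0.10, FDR 0.00233). With 1 library left out, the FDR exceeded the threshold (largest given) for H2BC21 (0.051) and H2AC20 (0.0597) without DMSO 2, H1-4 (0.0559) without daunorubicin 2 or DMSO 3, H4C14 (0.107) without daunorubicin 1 or 2 or DMSO 2 or 3, H4C15 (0.098) without daunorubicin 1 or 2 or DMSO 1, 2 or 3.

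Of 31 tested ribosome biogenesis genes 27 fell, none rose and none were called, with a median log2 fold change of −0.43. Over all genes tested 15.8% fell and 15.3% rose. POLR1G, a subunit of RNA polymerase I, had 13.6, 13.7 and 17.6 CPM with daunorubicin, against 28.3, 24.96 and 29.3 CPM with DMSO (log2 fold change −0.88 ± 0.12, FDR 0.00481). NCL (nucleolin), the most studied nucleolar protein of the list, had 883, 1052 and 1245 CPM with daunorubicin, against 1472, 1510.2 and 1555 CPM with DMSO (log2 fold change −0.51 ± 0.11, FDR 0.0148), and NOP56, a core protein of box C/D particles, 203, 227 and 265 CPM with daunorubicin and 314, 323 and 333 CPM with DMSO (log2 fold change −0.48 ± 0.09, FDR 0.0101). Treated library 3 lay nearest to the controls for each. MYC, which drives this programme in many cells, had 133, 150.5 and 173 CPM with daunorubicin, against 254, 241.1 and 252 CPM with DMSO (log2 fold change −0.71 ± 0.09, FDR 0.00421), without overlap. NPM1, the nucleolar protein that is mutated in this line, had 850.1, 951 and 1122 CPM with daunorubicin, against 1313, 1276 and 1298 CPM with DMSO (log2 fold change −0.41 ± 0.10, FDR 0.0171). RRN3 had 1 treated library at 0 and did not pass (log2 fold change −1.53 ± 0.90, FDR 0.229). The number that fell was 10 without daunorubicin library 2, 17 without DMSO library 1, 12 without DMSO library 2 and 16 without DMSO library 3. Single libraries decided some of these calls, since leaving 1 out put the FDR over the threshold (largest given) for NCL (0.0584) without daunorubicin 2 or DMSO 2 or 3, NPM1 (0.0672) without daunorubicin 2 or DMSO 1, 2 or 3.

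Interferon-stimulated genes rose from low levels. Of 27 tested, 16 rose, 7 were called and none fell, with a median of 0.86. The shares over all genes tested were 15.3% that rose, 3.48% called up-regulated and 15.8% that fell. STAT2, a subunit of the factor that binds these genes, had 83.0, 67.0 and 47.8 CPM with daunorubicin, against 33.8, 30.2 and 28.5 CPM with DMSO (log2 fold change 1.10 ± 0.18, FDR 0.00691). IFIT2, an RNA-binding antiviral protein, had 8.91, 5.49 and 4.15 CPM with daunorubicin, against 1.36, 1.97 and 1.68 CPM with DMSO (log2 fold change 1.88 ± 0.30, FDR 0.0066), and OASL 3.92, 2.62 and 1.88 CPM with daunorubicin and 0.873, 0.604 and 0.758 CPM with DMSO (log2 fold change 1.92 ± 0.31, FDR 0.00691). IFIT3 had 16.3, 11.6 and 8.47 CPM with daunorubicin, against 5.50, 5.80 and 5.64 CPM with DMSO (log2 fold change 1.10 ± 0.22, FDR 0.0113). In all of these treated library 1 was highest and no treated library overlapped the controls. ISG15, the ubiquitin-like modifier, had 19.6, 14.97 and 11.8 CPM with daunorubicin, against 6.47, 8.80 and 8.87 CPM with DMSO (log2 fold change 0.94 ± 0.20, FDR 0.0138), and BST2 (tetherin) rose only slightly (log2 fold change 0.23 ± 0.05, FDR 0.0133). MX1 had 15.1, 7.91 and 6.80 CPM with daunorubicin and 2.46, 4.64 and 5.77 CPM with DMSO (log2 fold change 1.21 ± 0.37, FDR 0.0433), with treated library 3 barely above DMSO library 3. MX2 (log2 fold change 0.11 ± 0.05, FDR 0.136), IRF1 (log2 fold change 0.09 ± 0.07, FDR 0.35) and USP18 (log2 fold change −0.35 ± 0.17, FDR 0.158), a feedback inhibitor, did not pass. The number that rose was 7 without daunorubicin library 2, 8 without DMSO library 1, 6 without DMSO library 2 and 9 without DMSO library 3. Some calls were lost when a library was left out (largest FDR given), these being IFIT3 (0.05) without DMSO 2, ISG15 (0.0517) without daunorubicin 2, BST2 (0.0656) without daunorubicin 2 or DMSO 2 or 3, MX1 (0.114) without daunorubicin 1 or 2 or DMSO 1, 2 or 3. An offset for transcript length gave an FDR over the threshold for IFIT3 (FDR 0.222) and MX1 (FDR 0.0763). The interferon-stimulated response element (ISRE), searched on either strand as GAAA, any pair of bases and GAAA, was in 13 of 20 promoters of the list (65.0%), against 3.65% of all promoters and 3.97% of those of all genes that rose. The stretches of 3 that rose are shown, with the element in capitals; in BST2 and ISG15 overlapping copies run together.
IFIT3, chr10:89327845-89327914, plus strand: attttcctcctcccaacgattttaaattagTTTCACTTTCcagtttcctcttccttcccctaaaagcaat
BST2, chr19:17405715-17405784, minus strand: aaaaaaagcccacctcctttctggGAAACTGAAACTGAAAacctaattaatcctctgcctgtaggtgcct
ISG15, chr1:1013360-1013429, plus strand: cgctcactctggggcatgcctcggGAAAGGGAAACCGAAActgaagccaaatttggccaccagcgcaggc

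AP-1 and immediate early genes split, with 11 of 26 higher, 4 of them called, and 2 lower, against 15.3% higher and 15.8% lower over all genes tested. JUN, the AP-1 subunit, had 58.2, 37.3 and 15.1 CPM with daunorubicin, against 13.9, 10.7 and 10.4 CPM with DMSO (log2 fold change 1.66 ± 0.42, FDR 0.022). Treated library 3 was only slightly above the controls. ATF3, a stress-induced partner of JUN, had 8.29, 5.27 and 3.49 CPM with daunorubicin, against 1.58, 1.51 and 2.01 CPM with DMSO (log2 fold change 1.74 ± 0.32, FDR 0.00869), and FOS rose below the fold threshold (log2 fold change 0.81 ± 0.18, FDR 0.0147). DUSP4 and DUSP6, phosphatases that act on MAP kinases, were both called. DUSP4 was even, with 26.8, 24.5 and 18.4 CPM with daunorubicin and 9.02, 10.03 and 10.2 CPM with DMSO (log2 fold change 1.25 ± 0.14, FDR 0.00354), whereas DUSP6 ran widely, with 92.9, 35.3 and 19.4 CPM with daunorubicin and 19.9, 14.1 and 12.8 CPM with DMSO (log2 fold change 1.66 ± 0.51, FDR 0.0422). KLF2, a transcription factor, and DUSP2 fell (log2 fold change −0.74 ± 0.21, FDR 0.0324, and −0.94 ± 0.20, FDR 0.0129), and EGR1 (log2 fold change 0.39 ± 0.19, FDR 0.156) and NR4A1 (log2 fold change 0.16 ± 0.09, FDR 0.223) did not pass. The number that rose was 4 without daunorubicin library 2, 5 without DMSO library 1, 2 without DMSO library 2 and 4 without DMSO library 3, and the number that fell was 0 without daunorubicin library 2 and otherwise 1 or 2. Not every call held without each library, as the FDR was over the threshold (largest given) for JUN (0.0855) without daunorubicin 2 or DMSO 1, 2 or 3, FOS (0.0621) without DMSO 2 or 3, DUSP6 (0.136) without daunorubicin 1 or 2 or DMSO 1, 2 or 3, KLF2 (0.112) without daunorubicin 1 or 2 or DMSO 2 or 3, DUSP2 (0.0555) without daunorubicin 2. With an offset for transcript length DUSP6 (FDR 0.0593) lost the threshold.

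Of 25 tested NF-kB feedback genes, chemokines and cytokines, 11 rose, 6 were called and 2 fell, where 15.3% of all genes tested rose and 15.8% fell. LIF, a cytokine of the interleukin 6 family, had 23.5, 21.7 and 15.6 CPM with daunorubicin, against 3.82, 4.69 and 4.78 CPM with DMSO. It was among the genes with the smallest p, with treated libraries several fold above controls (log2 fold change 2.19 ± 0.17, FDR 0.00205). OSM (oncostatin M), of the same family, had 13.7, 11.8 and 8.20 CPM with daunorubicin, against 5.82, 4.97 and 5.44 CPM with DMSO (log2 fold change 1.06 ± 0.19, FDR 0.00847). CXCL8, the neutrophil chemokine, had 343, 215 and 156 CPM with daunorubicin, against 115, 104 and 111 CPM with DMSO (log2 fold change 1.12 ± 0.25, FDR 0.0148), and IL1B 70.1, 39.5 and 24.2 CPM with daunorubicin and 19.9, 14.05 and 19.4 CPM with DMSO (log2 fold change 1.33 ± 0.35, FDR 0.0245). For both, treated library 1 was far the highest. CXCL1 went the other way, with 58.0, 45.2 and 41.8 CPM with daunorubicin, against 78.8, 77.3 and 72.1 CPM with DMSO (log2 fold change −0.65 ± 0.12, FDR 0.00808). The factor subunits RELA (log2 fold change −0.12 ± 0.05, FDR 0.088) and NFKB1 (log2 fold change −0.09 ± 0.06, FDR 0.321) did not pass, while the ubiquitin editor TNFAIP3 rose (log2 fold change 0.65 ± 0.07, FDR 0.0029). The number that rose was 6 without daunorubicin library 2, 5 without DMSO library 1, 3 without DMSO library 2 and 5 without DMSO library 3. With 1 library left out, the FDR exceeded the threshold (largest given) for CXCL8 (0.065) without DMSO 1, 2 or 3, IL1B (0.0965) without daunorubicin 2 or DMSO 1, 2 or 3.

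Monocyte and macrophage genes rose more often than they fell, 19 against 3 of 39 tested, with 12 and 1 called. Over all genes tested 15.3% rose and 15.8% fell, and 3.48% and 0.477% were called. TREM2, a lipid-sensing receptor of macrophages, had 97.04, 97.6 and 67.7 CPM with daunorubicin, against 18.6, 27.05 and 30.1 CPM with DMSO (log2 fold change 1.79 ± 0.20, FDR 0.00345). S100A9 and S100A8, the paired calcium-binding proteins of monocytes and neutrophils, rose together, S100A9 with 209, 124 and 63.2 CPM with daunorubicin and 39.4, 26.5 and 26.5 CPM with DMSO (log2 fold change 2.10 ± 0.39, FDR 0.00947) and S100A8 with 124, 79.3 and 40.1 CPM with daunorubicin and 26.9, 23.6 and 19.2 CPM with DMSO (log2 fold change 1.799 ± 0.36, FDR 0.0112). The treated libraries of both were above the controls but widely spread, with library 1 highest. CSF1R, the receptor of macrophage colony-stimulating factor, had 78.2, 49.3 and 26.0 CPM with daunorubicin, against 19.5, 14.8 and 14.2 CPM with DMSO (log2 fold change 1.66 ± 0.35, FDR 0.0132), and CD36, a scavenger receptor, 689.6, 487 and 324 CPM with daunorubicin and 210.1, 195 and 183 CPM with DMSO (log2 fold change 1.35 ± 0.23, FDR 0.00768). ITGAM (CD11b) had 22.9, 16.3 and 10.4 CPM with daunorubicin, against 8.34, 7.64 and 6.86 CPM with DMSO (log2 fold change 1.12 ± 0.25, FDR 0.0164). NCF1, a subunit of the phagocyte oxidase, shares sequence with NCF1B and NCF1C, so its rise (log2 fold change 1.27 ± 0.20, FDR 0.00626) may contain reads of the copies. CD14, a defining monocyte receptor, had 58.2, 17.9 and 10.6 CPM with daunorubicin, against 17.8, 7.85 and 7.88 CPM with DMSO and did not pass (log2 fold change 1.38 ± 0.61, FDR 0.124); treated library 3 was below DMSO library 1. LYZ (log2 fold change 0.54 ± 0.22, FDR 0.0954), VCAN (log2 fold change 0.54 ± 0.39, FDR 0.325) and CD163 (log2 fold change 0.97 ± 0.50, FDR 0.171) did not pass either. When the replicate number was fitted as a block, CD14 (FDR 0.00774), LYZ (FDR 0.00307), VCAN (FDR 0.0123) and CD163 (FDR 0.00676) did pass. FCGR1A fell (log2 fold change −0.86 ± 0.18, FDR 0.0124). The median of the list was 1.00, 0.47 and 0.10 above the DMSO mean on the log2 scale in daunorubicin libraries 1, 2 and 3, and 0.20 above it in DMSO library 1. Leaving out a library changed the number that rose to 14, 11 and 29 (daunorubicin 1, 2 and 3) and 14, 8 and 9 (DMSO 1, 2 and 3), and the number that fell to between 0 and 2. Single libraries decided some of these calls, since leaving 1 out put the FDR over the threshold (largest given) for S100A8 (0.0516) and CSF1R (0.0609) without DMSO 2 or 3, ITGAM (0.068) without daunorubicin 2 or DMSO 2 or 3, FCGR1A (0.055) without daunorubicin 2.

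**Figure D4:**
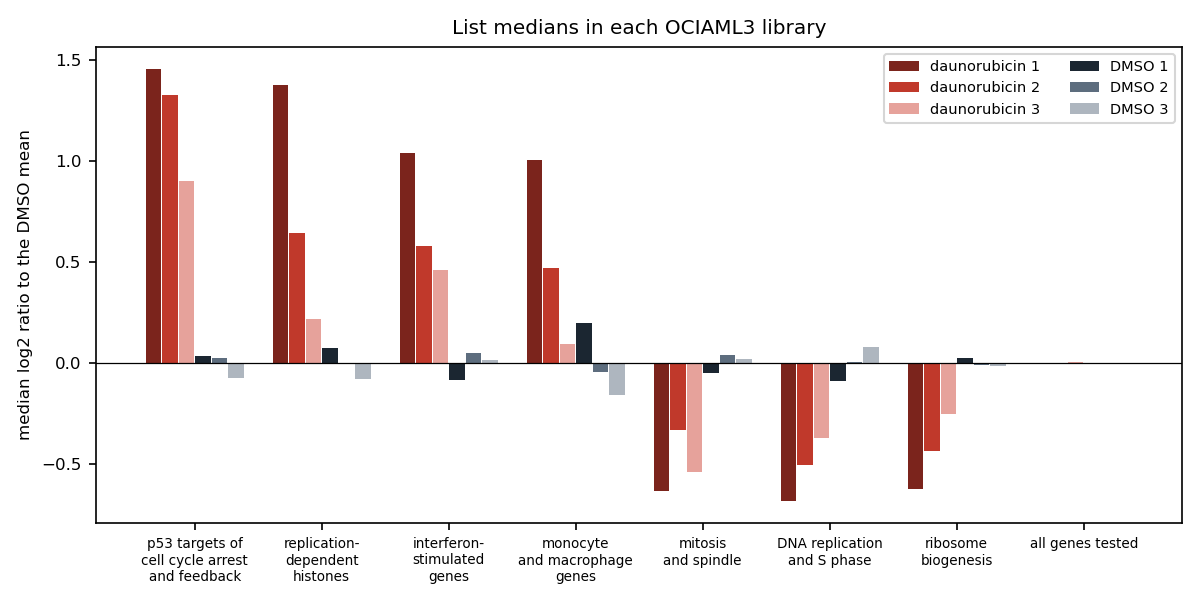
Median log2 level of each gene list in each library relative to the mean of the 3 DMSO libraries (vertical axis), with daunorubicin libraries 1, 2 and 3 left of DMSO libraries 1, 2 and 3 (horizontal axis). The arrest, mitosis and replication lists move in all 3 treated libraries, while the histone and monocyte lists move most in daunorubicin library 1 and least in library 3; all genes stay near 0.

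Other myeloid genes gave smaller and mixed values. The granule genes, with 2 of 9 rising and 1 falling, were near the shares of all genes tested (15.3% and 15.8%). Of 9 tested granule genes, PRTN3 (proteinase 3) fell, with 119.8, 174 and 238 CPM with daunorubicin and 353, 322 and 299.6 CPM with DMSO (log2 fold change −0.87 ± 0.21, FDR 0.0198), RNASE2 and SERPINB1 rose slightly (log2 fold change 0.22 ± 0.06, FDR 0.0333, and 0.27 ± 0.08, FDR 0.0341), and ELANE (log2 fold change −0.24 ± 0.10, FDR 0.103) and MPO (log2 fold change −0.11 ± 0.23, FDR 0.75) did not pass. Among 29 HOX and progenitor factors 4 rose and 3 fell, near the background shares of 15.3% and 15.8%, and leaving out single libraries gave 0 to 8 and 1 to 6. HOXA9, a hallmark of NPM1-mutated leukemia, was level at 86.8, 79.9 and 77.9 CPM with daunorubicin and 81.1, 87.9 and 94.1 CPM with DMSO (log2 fold change −0.11 ± 0.07, FDR 0.284), and MEIS1 did not pass (log2 fold change 0.18 ± 0.08, FDR 0.0985). Of 21 tested adhesion and migration genes 10 rose, 2 of them called, and 1 fell, where 15.3% of all genes rose, 3.48% were called up-regulated and 15.8% fell. PECAM1 had 276, 191 and 101 CPM with daunorubicin, against 92.3, 71.2 and 55.3 CPM with DMSO (log2 fold change 1.38 ± 0.34, FDR 0.0202), CD44, the hyaluronan receptor, 353, 296 and 221 CPM with daunorubicin and 188, 174 and 164 CPM with DMSO (log2 fold change 0.73 ± 0.15, FDR 0.0124), and the integrin ITGAL 47.4, 43.9 and 31.7 CPM with daunorubicin and 24.1, 21.9 and 21.7 CPM with DMSO (log2 fold change 0.86 ± 0.14, FDR 0.00691). CXCR4, the receptor that holds blasts in marrow, rose slightly (log2 fold change 0.29 ± 0.07, FDR 0.0231), and SELPLG, the ligand of selectins, fell (log2 fold change −0.49 ± 0.11, FDR 0.0148). The number of adhesion genes that rose was 4 without daunorubicin library 2, 6 without DMSO library 1 and 3 without DMSO library 2 or 3. Some calls were lost when a library was left out (largest FDR given), these being PECAM1 (0.0798), CD44 (0.0565) and SELPLG (0.056) without daunorubicin 2 or DMSO 2 or 3, PRTN3 (0.073) and CXCR4 (0.0847) without daunorubicin 2 or DMSO 1, 2 or 3, RNASE2 (0.132) and SERPINB1 (0.129) without daunorubicin 1 or 2 or DMSO 1, 2 or 3. An offset for transcript length gave an FDR over the threshold for SERPINB1 (FDR 0.0722).

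Beyond the lists, the called protein-coding genes with the largest changes and separated groups included several with no entry among the p53 targets above. CEACAM1, an adhesion receptor, had 14.2, 8.30 and 2.86 CPM with daunorubicin, against 1.39, 0.58 and 0.594 CPM with DMSO (log2 fold change 3.32 ± 0.61, FDR 0.00889). RND3, an atypical small GTPase, had 22.1, 11.5 and 3.70 CPM with daunorubicin, against 1.94, 1.04 and 0.791 CPM with DMSO (log2 fold change 3.31 ± 0.64, FDR 0.0102). CYGB (cytoglobin) had 40.8, 33.4 and 14.2 CPM with daunorubicin, against 4.17, 3.204 and 3.001 CPM with DMSO (log2 fold change 3.09 ± 0.38, FDR 0.00397), and CSPG4 (NG2), a surface proteoglycan, 22.8, 22.7 and 11.1 CPM with daunorubicin and 2.68, 2.14 and 2.44 CPM with DMSO (log2 fold change 2.97 ± 0.29, FDR 0.00278). Every treated library of these 4 genes was above every control library, and for CEACAM1 and RND3 treated library 3 was far the lowest of the treated ones. ENPP2 (autotaxin), which makes lysophosphatidic acid, rose as well (log2 fold change 2.95 ± 0.30, FDR 0.0029), and so did FGF2 (log2 fold change 2.79 ± 0.52, FDR 0.00944). A gene known only as ENSG00000285976, on chromosome 6 at 63572472 to 63583587, had 13.1, 6.89 and 12.2 CPM with daunorubicin, against 0.711, 1.35 and 0.561 CPM with DMSO (log2 fold change 3.57 ± 0.37, FDR 0.0029). Of the called genes with the smallest p, IL21R, a cytokine receptor, had 33.0, 35.6 and 29.8 CPM with daunorubicin and 10.03, 11.1 and 13.2 CPM with DMSO (log2 fold change 1.52 ± 0.12, FDR 0.00205), NECTIN4, an adhesion protein, 4.02, 4.38 and 2.82 CPM with daunorubicin and 0.42, 0.418 and 0.429 CPM with DMSO (log2 fold change 3.14 ± 0.24, FDR 0.00205), and TP53INP2, an autophagy regulator, 273, 298 and 232 CPM with daunorubicin and 128, 129 and 131 CPM with DMSO (log2 fold change 1.05 ± 0.09, FDR 0.00205). Not every call held without each library, as the FDR was over the threshold (largest given) for RND3 (0.0529) without DMSO 2.

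Fewer genes fell past the fold threshold than rose past it. TBC1D30 had 1.49, 2.92 and 2.62 CPM with daunorubicin, against 16.4, 10.2 and 17.5 CPM with DMSO (log2 fold change −2.63 ± 0.29, FDR 0.00345). DOC2B was at 0 CPM in all 3 treated libraries and at 1.13, 1.18 and 1.91 CPM in DMSO libraries, at least 13.5-fold lower when set against 3 counts in a treated library, and its fitted fold change is no bound. Both genes were thus separated, DOC2B at low counts. MT2A, a metallothionein, had 4.65, 5.51 and 6.59 CPM with daunorubicin, against 22.3, 12.9 and 15.96 CPM with DMSO (log2 fold change −1.61 ± 0.22, FDR 0.00481), and NRM (nurim), a nuclear envelope protein, 4.96, 6.73 and 6.24 CPM with daunorubicin and 14.4, 15.4 and 17.6 CPM with DMSO (log2 fold change −1.40 ± 0.14, FDR 0.0029). STC1 (stanniocalcin) had 5.38, 5.90 and 1.39 CPM with daunorubicin, against 15.5, 9.29 and 14.3 CPM with DMSO (log2 fold change −1.61 ± 0.45, FDR 0.0299) and DDN 1.32, 1.68 and 5.09 CPM with daunorubicin and 9.60, 8.27 and 10.9 CPM with DMSO (log2 fold change −1.84 ± 0.45, FDR 0.0199). In DDN treated library 3 was nearest to the controls. WDR76 (log2 fold change −1.01 ± 0.15, FDR 0.00546), TMEM106C (log2 fold change −1.19 ± 0.19, FDR 0.00639), MAP2K6, a kinase above p38 (log2 fold change −1.32 ± 0.22, FDR 0.0071), and CDH6 (log2 fold change −1.29 ± 0.27, FDR 0.0129) fell as well. FCGR2C (log2 fold change −1.69 ± 0.37, FDR 0.0144) shares most of its sequence with FCGR2B (log2 fold change −1.18 ± 0.35, FDR 0.0363), and reads can be divided between them. With 1 library left out, the FDR exceeded the threshold (largest given) for STC1 (0.0946), DDN (0.0764) and FCGR2B (0.116) without daunorubicin 2 or DMSO 1, 2 or 3, CDH6 (0.055) without DMSO 2. An offset for transcript length gave an FDR over the threshold for MAP2K6 (FDR 0.0509).

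The same rule, limited to 5 lncRNA genes per direction, gave 5 that rose and 1 that fell. PURPL, described as a p53-regulated transcript that restrains p53, had 14.4, 15.5 and 9.10 CPM with daunorubicin, against 1.03, 1.997 and 2.51 CPM with DMSO (log2 fold change 2.81 ± 0.32, FDR 0.00354). It lies on chromosome 5 at 27217714 to 27497871. AATBC (log2 fold change 1.69 ± 0.25, FDR 0.00546), LINC02169 (log2 fold change 1.34 ± 0.16, FDR 0.00395) and LINC00900 (log2 fold change 1.47 ± 0.30, FDR 0.0121) were the others with unshared sequence. NCF1B (log2 fold change 1.33 ± 0.22, FDR 0.00691) is a copy of NCF1. SBF2-AS1 fell, with 3.12, 3.42 and 4.603 CPM with daunorubicin and 7.96, 6.64 and 8.01 CPM with DMSO (log2 fold change −1.02 ± 0.18, FDR 0.00763), although without strand its reads cannot be told from those of SBF2. Single libraries decided some of these calls, since leaving 1 out put the FDR over the threshold (largest given) for LINC00900 (0.0568) without daunorubicin 2 or DMSO 2 or 3. With an offset for transcript length SBF2-AS1 (FDR 0.145) lost the threshold.

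MOLM13 cells given the same dose for the same time allowed the response to be compared between lines, through the interaction term of a fit over 12 libraries, which were scaled together. The response differed for 4017 of 17141 genes (23.4%), with 2585 higher in OCIAML3 (15.1%) and 1432 lower (8.35%), where higher means that the log2 fold change in OCIAML3 minus that in MOLM13 was positive. Without a filter on low counts the split was 1712 higher and 1543 lower. The p53 targets rose less in OCIAML3, with 13 of 49 lower and none higher, and medians of 0.82 in OCIAML3 and 1.25 in MOLM13. MDM2 averaged 542 ± 89.8 CPM with daunorubicin, against 220.4 ± 21.5 CPM with DMSO in OCIAML3, and 791 ± 48.7 CPM with daunorubicin, against 161 ± 32.6 CPM with DMSO in MOLM13 (SD, n = 3 each), a difference of −0.996 ± 0.20, FDR 0.00543. CDKN1A, in contrast, averaged 840.1 ± 430.4 CPM with daunorubicin, against 88.0 ± 13.002 CPM with DMSO in OCIAML3 and 1626 ± 365 CPM with daunorubicin, against 183 ± 91.7 CPM with DMSO in MOLM13, and the difference of 0.10 ± 0.56, FDR 0.944 did not pass and changed sign when single libraries were left out. TP53INP1 (1.96 in OCIAML3 and 3.15 in MOLM13; difference −1.19 ± 0.35, FDR 0.0299), ZMAT3 (−0.88 ± 0.25, FDR 0.0251) and BAX (−0.45 ± 0.12, FDR 0.0208) rose less in OCIAML3, but lost the threshold in 7, 3 and 4 of the 12 fits that left out a library, with FDR up to 0.0678, 0.0614 and 0.0571.

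The larger contrast was in the genes that fell. For replication genes 29 of 40 were higher in OCIAML3 and none lower, with medians of −0.51 in OCIAML3 and −1.89 in MOLM13. RRM2 averaged 104 ± 12.6 CPM with daunorubicin, against 217 ± 6.34 CPM with DMSO in OCIAML3 and 58.3 ± 38.2 CPM with daunorubicin, against 377 ± 27.4 CPM with DMSO in MOLM13, and MCM10 changed by −0.58 in OCIAML3 and −2.52 in MOLM13 (1.94 ± 0.53, FDR 0.0217). The RRM2 difference was 1.63 ± 0.53, FDR 0.0453, and it lost the threshold in 10 of the 12 fits with a library left out (FDR up to 0.0909) and with DESeq2 (0.0502). Ribosome biogenesis genes followed, with 26 of 31 higher in OCIAML3 and medians of −0.42 in OCIAML3 and −0.97 in MOLM13. NOP56 changed by −0.47 in OCIAML3 and −1.24 in MOLM13 (0.77 ± 0.12, FDR 0.00158). Mitotic genes had medians of −0.50 in OCIAML3 and −1.69 in MOLM13, but only 5 of 47 passed, all higher in OCIAML3. That is a smaller share than the 15.1% of all genes that were higher. CDC20 was among them (2.09 ± 0.65, FDR 0.0376) but lost the threshold in 9 of the 12 fits (FDR up to 0.0831). For these lists the MOLM13 values thus lay further from 0. Replication-dependent histones had medians of 0.85 in OCIAML3 and 1.98 in MOLM13, with 5 of 33 lower in OCIAML3 and none higher.

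**Figure D5:**
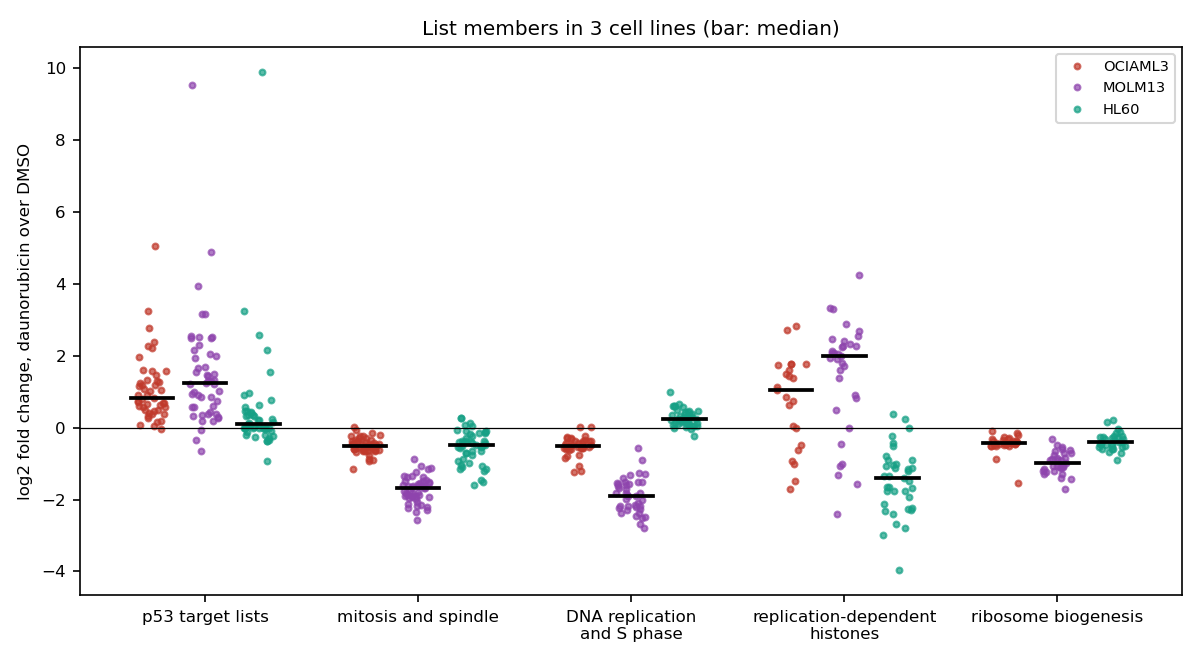
Log2 fold change of daunorubicin over DMSO (vertical axis) of members of 5 lists (horizontal axis) in OCIAML3, MOLM13 and HL60. Each tested gene is 1 point and the median is a bar. The OCIAML3 points come from the fit of that line alone, and those of MOLM13 and HL60 from the joint fits with OCIAML3. The OCIAML3 bars for p53 targets lie between those of MOLM13 and HL60, the mitosis bars of OCIAML3 and HL60 nearly coincide, and the replication and histone lists lie on opposite sides of 0 in OCIAML3 and HL60.

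HL60 cells gave the opposite contrast for p53 targets. Over all genes 1663 of 16901 differed (9.84%), 393 higher in OCIAML3 (2.33%) and 1270 lower (7.51%). DESeq2 gave 897 higher and 1491 lower, and the fit without a filter on low counts 749 and 1251, so the share that was higher depended on the method. Of 48 p53 targets 17 were higher in OCIAML3 and 2 lower (PLXNB2 and PIDD1), with medians of 0.79 in OCIAML3 and 0.10 in HL60. MDM2 averaged 536 ± 89.3 CPM with daunorubicin, against 221 ± 21.4 CPM with DMSO in OCIAML3, and 89.2 ± 9.62 CPM with daunorubicin, against 96.3 ± 7.36 CPM with DMSO in HL60 (SD, n = 3 each), a difference of 1.39 ± 0.17, FDR 0.000478. ZMAT3 (1.25 in OCIAML3 and −0.37 in HL60; 1.61 ± 0.20, FDR 0.000427), FDXR (1.57 in OCIAML3 and 0.46 in HL60; 1.11 ± 0.17, FDR 0.00166) and RRM2B (1.04 in OCIAML3 and 0.04 in HL60; 1.00 ± 0.15, FDR 0.00166) gave the same direction. BAX did as well (0.40 ± 0.10, FDR 0.0257), although it lost the threshold in 3 of the 12 fits with a library left out (FDR up to 0.0624) and with an offset for transcript length (0.0504). CDKN1A was near the floor in HL60, with 1.91 ± 0.934 CPM with daunorubicin, against 0.208 ± 0.139 CPM with DMSO. The difference between its fold changes (3.24 in OCIAML3 and 3.25 in HL60) did not pass. This difference was −0.01, but lay between −0.64 and 0.43 with a library left out, so it is uncertain.

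Replication genes were on opposite sides in these lines, with 35 of 40 lower in OCIAML3 and none higher, and medians of −0.53 in OCIAML3 and 0.25 in HL60. RRM2 averaged 103 ± 12.3 CPM with daunorubicin, against 218 ± 6.53 CPM with DMSO in OCIAML3, and 709.7 ± 82.4 CPM with daunorubicin, against 599.5 ± 52.7 CPM with DMSO in HL60, a difference of −1.32 ± 0.15, FDR 0.000312, and CCNE2 changed by −1.23 in OCIAML3 and 0.65 in HL60 (−1.88 ± 0.34, FDR 0.00422). Mitotic genes did not follow, with 9 of 47 higher and 6 lower in OCIAML3 and medians of −0.52 in OCIAML3 and −0.49 in HL60. AURKB fell more in OCIAML3 (−0.93 ± 0.12, FDR 0.000702), whereas CDC20 (0.97 ± 0.19, FDR 0.00627) and PLK1 (0.62 ± 0.12, FDR 0.00705) fell less. Histone genes differed most in size, with 11 of 37 higher in OCIAML3 and none lower. H2AC6 averaged 19.3 ± 7.87 CPM with daunorubicin, against 5.67 ± 1.25 CPM with DMSO in OCIAML3, and 0.415 ± 0.0728 CPM with daunorubicin, against 2.04 ± 0.284 CPM with DMSO in HL60 (difference 4.06 ± 0.44, FDR 0.000285), and H2BC12 changed by 1.76 in OCIAML3 and −2.14 in HL60 (3.90 ± 0.45, FDR 0.000368). Ribosome biogenesis genes were lower in both lines, with medians of −0.44 in OCIAML3 and −0.41 in HL60, and 2 of 31 differed.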

How the data were processed

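Total RNA was extracted with Trizol and unstranded paired-end libraries were sequenced. The authors' deposited files hold Salmon estimated counts per transcript; the submitters' processing notes name Salmon 1.8.0, edgeR 3.38.1, FastQC 0.11.9 and GRCh38. The TPM values and effective lengths that the authors' Salmon run deposited served only for an offset of transcript length in 1 alternative. The deposited estimated counts were summed per gene with GENCODE release 44 and rounded to whole numbers. Of 252199 transcripts, 235378 matched 59041 genes, and the 16821 left out held 4.00% to 4.08% of the counts of the 6 libraries. Genes were kept by filterByExpr (minimum count 10, total 15), scaled by TMM and tested in R 4.3.3 with edgeR 4.0.16 (quasi-likelihood F test, legacy option) and Benjamini-Hochberg adjustment over all genes tested, on the 3 daunorubicin and 3 DMSO libraries alone. Interactions used 12 libraries each. The procedure was tested on simulated data. The read data carry no strand, so overlapping antisense genes cannot be separated. The genes described are the 10 protein-coding and 5 lncRNA genes per direction with the largest changes (5 CPM or more in the higher group, groups separated), the 10 per direction with the smallest p, and list members. The lists, the genes and the comparison were chosen with earlier results of these data known. Lists are described by counts and medians only. Alternatives were DESeq2 1.42.0, other scaling, filters, a transcript length offset, the exact test, a replicate block, larger fits and leaving out each library. No libraries were duplicates of each other.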

Additional observations from a re-analysis of the deposited data

Results flagged for a closer look

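Responses to daunorubicin that differed between lines by the interaction test are given here as the log2 fold change in OCIAML3 minus that in the other line. Against MOLM13, 4017 genes differed. Among p53 targets MDM2 (−1.0), ZMAT3 (−0.88), TP53INP1 (−1.19) and BAX (−0.45) rose less in OCIAML3, while CDC20 (2.09) and RRM2 (1.63) fell less. Of the genes with the smallest p in each direction, FABP5, a fatty acid carrier (1.41), RPP25 (1.62), PKP4 (1.16), WNT7B (3.17) and GARS1, the glycyl-tRNA synthetase (0.88), had the more positive response in OCIAML3. GAS6-AS1 (−2.29), CYTH4 (−1.72), SGSH, a lysosomal enzyme (−2.46), ATG16L2 (−1.18) and ALDH6A1 (−1.53) had the more negative one.

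Against HL60, 1663 genes differed. MDM2 (1.39), ZMAT3 (1.61), FDXR (1.11), RRM2B (1.00) and BAX (0.40) rose more in OCIAML3. Cell cycle genes went both ways, with AURKB (−0.93), RRM2 (−1.32) and CCNE2 (−1.88) more negative and CDC20 (0.97) and PLK1 (0.62) less. The histone genes H2AC6 (4.06) and H2BC12 (3.90) had the largest differences named here. FAR2 (1.09) was higher, and PTPRF (−2.45), NBL1 (−3.25), CSPG5 (−3.45), TYRO3, a receptor kinase (−1.69), and ATP8B2 (−2.42) were lower. The lines differ in medium, and the part of this in the differences was not tested.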

How the results depend on the processing

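The count of 622 called genes was 4897 without the fold threshold, 0 when all 12 OCIAML3 libraries shared the fit, and between 280 and 1013 when 1 library was left out. The other alternatives gave 478 (filter at 1 CPM in 3 libraries, 456 shared with the 622) to 786 (no filter on low counts, 568 shared). With the replicate number as a block it was 677, of which 570 were shared. The numbers were not taken as pairs: same-numbered daunorubicin and DMSO libraries deviated from their group means with correlations of 0.29, 0.09 and 0.25 over 15729 genes, although every library correlated best with its own number. Of 232 values for named genes, 219 kept their direction and side of the threshold with the block, 11 newly passed, MX1 (FDR 0.0624) was lost and the CDKN1A difference below changed sign. Those that newly passed were ALOX5, ATF4, BCL2, CD14, CD163, EGR1, ELANE, FN1, LIG1, LYZ and VCAN. For MOLM13 the count of differing genes was between 3009 and 4055 with 1 library left out, against 4017. For HL60 it was 2795 with the replicate block and between 966 and 2084 with 1 library left out, against 1663. The share of higher responses was 23.6% for HL60, against 37.6% with DESeq2 and 37.5% without a filter on low counts, and 64.4% for MOLM13, against 52.6% without that filter. The CDKN1A difference changed sign: against MOLM13 (0.10) it was −0.14 with the block and between −0.37 and 0.45 with a library left out, and against HL60 (−0.01) it was 0.0603 with DESeq2, 0.0359 with RLE size factors, 0.0603 without a filter on low counts and between −0.64 and 0.43 with a library left out. Genes near a log2 fold change of 0 changed sign without passing in either fit: ATM was −0.0535, AURKA 0.00838 and MPO 0.188 with an offset for transcript length, and with a library left out AURKA lay between −0.163 and 0.0482, MPO between −0.325 and 0.00162, PCNA between −0.0174 and 0.0733 and PMAIP1 between −0.0813 and 0.0232. Over all values for named genes, leaving out a library gave 1377 of 1620 with the same direction and side of the threshold, 210 that lost it, 18 that newly passed and 15 that changed sign. The offset lost 13 of 232, DESeq2 1 of 232 (RRM2 against MOLM13), RLE size factors the same comparison (FDR 0.0555), and no filter on low counts lost RNASE2 (FDR 0.0574). FN1, which did not pass, passed with DESeq2 (FDR 0.0449) and the exact test, and so did LIG1. ATF4 passed with DESeq2 and BCL2 with the exact test. ATM passed with the filter at 1 CPM in 3 libraries (log2 fold change 0.14, FDR 0.0457) and with protein-coding genes alone (0.14, FDR 0.0452). With the replicate block FN1 (FDR 0.00132), BCL2 (FDR 0.00428), ATF4 (FDR 0.0252) and LIG1 (FDR 0.0345) passed too. The causes of these changes were not tested, except that the fits with a library left out have fewer samples. Depth limits the genes near 1 CPM, which the filter removes or keeps.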

Other observations

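Of 26 tested genes of cholesterol and fatty acid synthesis 3 rose and 5 fell, none called, near the shares of all genes tested (15.3% rose and 15.8% fell), with a median log2 fold change of −0.07, and leaving out single libraries gave 0 to 4 and 1 to 10. SCD, a fatty acid desaturase, fell (log2 fold change −0.55 ± 0.14, FDR 0.0231). In MOLM13 the same list had a median of −1.12, and 20 of 27 genes differed, all higher in OCIAML3, against 15.1% of all genes. Some calls were lost when a library was left out (largest FDR given), these being SCD (0.0804) without daunorubicin 2 or DMSO 1, 2 or 3.

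Of 22 genes of the ATF4 and unfolded protein response 4 rose and 4 fell, near those shares, and 3 were called. SLC7A11, the cystine importer, had 88.3, 58.8 and 23.1 CPM with daunorubicin, against 9.64, 10.03 and 8.34 CPM with DMSO (log2 fold change 2.60 ± 0.43, FDR 0.00691). The treated libraries were all above the controls and library 1 was highest. The difference was 3.64 ± 0.55, FDR 0.00122 against MOLM13 and 2.74 ± 0.58, FDR 0.00988 against HL60. DDIT4 (log2 fold change 1.83 ± 0.40, FDR 0.0146) and CHAC1 (log2 fold change 1.17 ± 0.30, FDR 0.0246) were called as well, PHGDH, the first enzyme of serine synthesis, fell (log2 fold change −0.84 ± 0.11, FDR 0.00472), and ATF4 itself did not pass (log2 fold change −0.21 ± 0.07, FDR 0.0679). Among 19 genes of anthracycline targets, reductases, efflux and iron, 3 rose and 4 fell, also near them. HMOX1, heme oxygenase, had 121, 34.9 and 18.3 CPM with daunorubicin, against 18.2, 8.52 and 4.88 CPM with DMSO (log2 fold change 2.46 ± 0.72, FDR 0.0361), with treated library 3 level with DMSO library 1. The transferrin receptor TFRC fell (log2 fold change −0.82 ± 0.17, FDR 0.0128), as did TOP2B, the topoisomerase of resting cells (log2 fold change −0.29 ± 0.09, FDR 0.0463), and the carbonyl reductase CBR1, which reduces daunorubicin, was level (log2 fold change −0.04 ± 0.06, FDR 0.637). Not every call held without each library, as the FDR was over the threshold (largest given) for CHAC1 (0.0924), HMOX1 (0.126) and TOP2B (0.135) without daunorubicin 1 or 2 or DMSO 1, 2 or 3, DDIT4 (0.0648) without daunorubicin 2 or DMSO 2 or 3, TFRC (0.0575) without daunorubicin 2 or DMSO 3. With an offset for transcript length TOP2B (FDR 0.0737) lost the threshold.

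Some genes outside the rules were chosen after their values were seen. FN1, fibronectin, had 13433, 5942 and 1947 CPM with daunorubicin, against 2814, 1649 and 819 CPM with DMSO (log2 fold change 2.01 ± 0.68, FDR 0.055), so both groups were spread widely and it did not pass. With the replicate number as a block FN1 passed (FDR 0.00132). EGLN3, a prolyl hydroxylase, had 0.0347, 0.276 and 0.279 CPM with daunorubicin, against 3.202, 1.14 and 2.11 CPM with DMSO (log2 fold change −3.39 ± 0.59, FDR 0.00798), and MIR210HG (log2 fold change −1.85 ± 0.34, FDR 0.00926) and ENO2, a glycolytic enzyme (log2 fold change −1.07 ± 0.28, FDR 0.0261), fell as well. MT1G, a metallothionein like MT2A, had 9.47, 15.99 and 18.1 CPM with daunorubicin and 27.9, 26.8 and 33.3 CPM with DMSO (log2 fold change −1.01 ± 0.21, FDR 0.0133). SRGN, the granule proteoglycan serglycin, had 2780.5, 2304 and 1758 CPM with daunorubicin and 1216, 1128 and 1109 CPM with DMSO (log2 fold change 0.99 ± 0.15, FDR 0.0056), just under the fold threshold. With 1 library left out, the FDR exceeded the threshold (largest given) for ENO2 (0.0931) without daunorubicin 2 or DMSO 1, 2 or 3, MT1G (0.0531) without DMSO 3.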
